A study of Mus musculus with 36 samples.

Results

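Adherens junctions join neighbouring epithelial cells through cadherins and nectins, and 8 genes of these junctions were followed through every group of the study: the cadherin genes Cdh1 and Cdh3, the catenin genes Ctnna1 and Ctnnb1, the afadin gene Afdn, and the nectin genes Nectin1, Nectin2 and Nectin4. They were taken by gene name from the table of read counts, where they are 8 of 55358 genes. All 8 passed the filter on low counts that left 15114 genes for testing. The study sequenced polyadenylated RNA from mouse keratinocytes, the cells that build the epidermis, in 36 libraries that form 12 groups of 3. WT cells carried an intact Pkp4 gene, which encodes the desmosome and adherens junction protein plakophilin 4. PKP4-KO cells came from Pkp4 knockout mice, in which a critical exon of the gene had been removed in every cell. Rescue cells were PKP4-KO cells that received human PKP4 fused to EGFP from a lentivirus and were selected with puromycin, whereas the labels name no virus for the WT and PKP4-KO cells. All cells derived from primary keratinocytes of newborn pups from mice backcrossed to C57BL/6J, and the paper describes the virus-treated cells as stable cell lines. Each line was grown in low calcium medium (LCM), in which keratinocytes stay proliferative and form few junctions, or in high calcium medium (HCM), the same medium with added calcium chloride, and RNA was taken after 24 h or 72 h. The pups that gave WT cells were not those that gave PKP4-KO cells, and the submitters call the 3 libraries of a group biological replicates. The sources used here do not say whether these came from separate pups or cultures, so the p-values below measure the spread between these libraries.

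E-cadherin, encoded by Cdh1, and P-cadherin, encoded by Cdh3, bind cadherins of the neighbouring cell in a calcium-dependent way, and P-cadherin is typical of the basal layer of the epidermis. Inside the cell the cadherin tail holds β-catenin, the product of Ctnnb1, which in turn binds α-catenin, the product of Ctnna1, and α-catenin connects the complex to actin filaments. Nectins are immunoglobulin-type adhesion molecules that bind without calcium and are linked to actin by afadin. When it is not bound at the membrane, β-catenin also acts in the nucleus as a coactivator of Wnt target genes.

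The 2 cadherin genes lie in tandem on chromosome 8 of the GRCm39 build used by the authors. Cdh3 (ENSMUSG00000061048) spans chr8:107237456-107283929 with 16 exons on the plus strand, and its end lies 46.01 kb before the start of Cdh1 (ENSMUSG00000000303), which spans chr8:107329941-107396880, also with 16 exons on the plus strand. Ctnnb1 (ENSMUSG00000006932) lies at chr9:120757422-120789579 and Afdn (ENSMUSG00000068036) at chr17:13980555-14126680. Nectin1 (ENSMUSG00000032012) lies at chr9:43655019-43743955, Nectin2 (ENSMUSG00000062300) on the minus strand at chr7:19450569-19484408, and Nectin4 (ENSMUSG00000006411) at chr1:171197661-171216166. Counts were summed over the exons of each gene. To set the genes side by side, counts per 1000000 counts of the library (CPM, after TMM scaling of the library sizes) were divided by the deposited gene length. In WT cells at 24 h in LCM the mean level per kb was highest for the catenins, at 89.5 ± 2.20 CPM per kb (SD, n = 3) for Ctnnb1 and 51.5 ± 1.41 for Ctnna1. The cadherins followed at 21.3 ± 1.91 CPM per kb for Cdh1 and 17.8 ± 1.56 for Cdh3. Nectin1 stood at 14.1 ± 0.580 CPM per kb and Nectin4 at 10.3 ± 1.21, and the lowest were Afdn at 5.82 ± 0.431 and Nectin2 at 5.64 ± 0.606. All levels given from here on are CPM and compare groups, not genes.

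The 250 bases before the transcription start are shown for Cdh1 and Cdh3, neighbouring genes whose ratio of reads differed between PKP4-KO and WT cells, and for Nectin2 and Nectin4, the members with the largest differences between PKP4-KO and WT cells at 24 h. They were read from GRCm39 on the strand of the gene, 5′ to 3′, at chr8:107329733-107329982 for Cdh1, chr8:107237206-107237455 for Cdh3, chr7:19483499-19483748 on the minus strand for Nectin2 and chr1:171197411-171197660 for Nectin4. Capitals mark E-boxes of the letters CAGGTG or, as the same site read on the other strand, CACCTG, the form bound by Snail-type repressors.
Cdh1: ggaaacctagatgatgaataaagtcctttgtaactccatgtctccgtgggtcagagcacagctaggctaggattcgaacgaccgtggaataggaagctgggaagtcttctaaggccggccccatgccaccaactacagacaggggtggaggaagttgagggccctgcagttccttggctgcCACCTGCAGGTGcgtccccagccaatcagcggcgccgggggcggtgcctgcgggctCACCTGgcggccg
Cdh3: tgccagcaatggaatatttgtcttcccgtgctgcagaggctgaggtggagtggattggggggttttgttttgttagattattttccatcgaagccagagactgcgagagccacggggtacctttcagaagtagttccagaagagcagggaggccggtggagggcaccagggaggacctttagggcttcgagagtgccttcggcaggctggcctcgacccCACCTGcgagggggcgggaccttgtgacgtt
Nectin2: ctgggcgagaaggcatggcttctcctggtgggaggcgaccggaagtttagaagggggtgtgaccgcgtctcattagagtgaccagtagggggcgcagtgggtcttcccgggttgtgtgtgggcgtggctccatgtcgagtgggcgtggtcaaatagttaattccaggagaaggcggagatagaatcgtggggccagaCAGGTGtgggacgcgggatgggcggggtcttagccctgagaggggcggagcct
Nectin4: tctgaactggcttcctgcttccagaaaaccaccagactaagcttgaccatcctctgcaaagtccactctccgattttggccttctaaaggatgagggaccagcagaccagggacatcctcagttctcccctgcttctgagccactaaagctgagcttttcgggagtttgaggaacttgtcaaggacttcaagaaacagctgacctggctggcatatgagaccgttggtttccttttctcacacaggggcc
The Cdh1 stretch holds 3 such E-boxes, of which 2 adjoin each other at 69 to 58 bases before the start and the other lies at 13 to 8 bases. Cdh3 has 1 at 31 to 26 bases, Nectin2 has 1 at 53 to 48 bases, and Afdn, whose stretch is not printed, has 1 at 76 to 71 bases. The stretches of Nectin4, Nectin1, Ctnnb1 and Ctnna1 hold none of these letters. Of 21687 promoters of the same length, 17.7% hold at least 1 of these E-boxes and 61, or 0.281%, hold 3 or more. A CCAAT box, searched as CCAAT and ATTGG, occurs in 36.4% of the promoters, and among the 8 genes it is found in those of Cdh1, Cdh3 and Ctnnb1. These matches describe the letters of the stretches only.

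Library totals ranged from 13602728 to 22467187 counts. Pkp4 itself had 326 to 1443 counts in the WT libraries, 44 to 232 in the PKP4-KO libraries and 101 to 273 in the Rescue libraries, and the added EGFP-PKP4 sequence had 1902 to 15325 counts in Rescue against 0 to 113 in WT and 3 to 112 in PKP4-KO libraries. Of 9 keratinocyte markers, which include Krt5 and Krt14, the summed level was 23550 to 42130 CPM in Rescue, 34550 to 60410 CPM in WT and 40420 to 71910 CPM in PKP4-KO libraries, while the markers of fibroblasts, melanocytes, endothelial and immune cells summed to at most 7.56 CPM for each cell type in any library. Krt5 and Krt14 made up most of the keratinocyte sum, and the medians of several other markers in it stood apart between the lines. The median over 12 libraries was 6.72 CPM in WT and 264.5 CPM in PKP4-KO cells for Krt1 and 39.12 and 338.5 CPM for Krt10, keratins of the suprabasal layers. It was 46.9 and 11.8 CPM for Ivl, which encodes the cornified envelope protein involucrin, and 184 and 67.9 CPM for Itga6, the gene of a basal integrin. The other basal markers did not all move with Itga6. Their medians were 12840 and 18760 CPM for Krt5, 30170 and 30990 for Krt14 and 104.2 and 168.8 for Trp63. They were 146.9 and 141.4 CPM for Itgb4 and 523.3 and 325.1 for Col17a1. These medians pool the 4 culture conditions, over which Krt1 ran from 13.8 to 3841 CPM in PKP4-KO libraries. The simple-epithelium keratins Krt7, Krt8, Krt18 and Krt19 summed to 90.8 to 377.6 CPM in Rescue libraries, against 3.59 to 19.0 in WT and 6.04 to 13.3 in PKP4-KO libraries, which comes mainly from Krt7. In 7 libraries spread over all 3 lines, counts fell with gene length relative to the mean of all libraries of their group. Their slopes were -0.147 to -0.291 log2 units per doubling of length, under a cut of -0.14. These 7 are called below the libraries with a length trend. The 29 libraries kept were not free of trends in the other direction. The slope was 0.234 in Rescue replicate 1 at 72 h in LCM and 0.202 in WT replicate 1 at 24 h in HCM. Such slopes miss a trend shared by a whole group. Between the PKP4-KO and WT group means the slope was -0.175 and -0.324 in LCM and -0.0686 and -0.433 in HCM, at 24 h and 72 h. It was 0.751 for Rescue against PKP4-KO at 72 h in HCM, and -0.583 for 72 h against 24 h in PKP4-KO cells in HCM. No PKP4-KO library at 72 h in HCM was among the 7. The 3 PKP4-KO libraries at 72 h in HCM had TMM factors of 0.481 to 0.546, the lowest of all groups. The part of these library properties in the results was not tested beyond the alternative fits given with them.

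Loss of Pkp4 was compared with WT in each of the 4 culture conditions. No member was higher in PKP4-KO cells in any condition by edgeR's quasi-likelihood test at an adjusted p under 0.05, whereas 19.7%, 21.3%, 20.7% and 21.9% of all tested genes were higher at 24 h in LCM, 72 h in LCM, 24 h in HCM and 72 h in HCM. At 24 h in LCM 5 of 8 members were called lower, where 20.6% of the tested genes were called lower. The counts were 5 of 8 at 72 h in LCM against 23.8% of all tested genes, 6 of 8 at 24 h in HCM against 22.2%, and 5 of 8 at 72 h in HCM against 29.9%. The median log2 difference of the 8 members was -0.675, -0.683, -1.145 and -0.502 in these conditions in turn, and that of all tested genes was 0.003, 0.025, -0.002 and -0.072. As a mean over the 4 conditions, 7 of 8 members were called lower against 36.6% of all genes. The call of Cdh3 among these 7 (-0.17, adjusted p = 0.0326, edgeR) was lost in DESeq2 (adjusted p = 0.0561), with no filter (0.103), with the offset for gene length (0.086), with only the compared groups (0.0675), without the 7 libraries with a length trend (0.0634) and in 6 of 24 fits with 1 library left out. The libraries of the 2 lines did not overlap for 6, 7, 6 and 3 of the 8 members, compared with 50.6%, 55.2%, 46.7% and 58.2% of all tested genes. Without the 7 libraries with a length trend, 7, 6, 6 and 7 members were called, of which Cdh3 at 24 h in LCM and Nectin4 at 72 h in HCM were higher. In that fit 6766, 7594, 6959 and 9559 of 15425 tested genes were called, compared with 6083, 6809, 6472 and 7831 of 15114 with all libraries. At 72 h in HCM only 3 were called in DESeq2 or with an offset for gene length, and without TMM scaling, which moved the median of all genes there to -0.83, all 8 were called lower. Over all tested genes the calls there were 7866 of 17620 in DESeq2 and 7615 of 15114 with the offset. Without TMM scaling they were 9401 of 15114, of which 1268 were higher. In bulk RNA, fewer cells of a type and less RNA per cell cannot be told apart.

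Cdh1, which encodes E-cadherin, was lower in PKP4-KO cells in all 4 conditions. In HCM at 24 h its level was 229, 181 and 218 CPM in the 3 WT libraries and 85.5, 84.8 and 79.1 CPM in the 3 PKP4-KO libraries. Every PKP4-KO library lay far below the lowest WT library. The mean of 209 ± 25.2 CPM (SD, n = 3) in WT compared with 83.1 ± 3.498 CPM, a log2 difference of -1.33 (standard error 0.18, adjusted p = 5.48e-07, edgeR). After 24 h in LCM the WT libraries had 88.7, 97.2 and 106 CPM and the PKP4-KO libraries 41.5, 61.4 and 69.7 CPM, a log2 difference of -0.76 (standard error 0.18, adjusted p = 0.00117, edgeR). The values at 72 h in LCM were 68.2, 86.2 and 78.4 CPM in WT and 42.1, 36.3 and 52.0 CPM in PKP4-KO cells, a log2 difference of -0.84 (standard error 0.18, adjusted p = 0.000401, edgeR). In both LCM comparisons the 2 lines did not overlap. In HCM at 72 h the WT libraries stood at 99.0, 109.7 and 69.4 CPM and the PKP4-KO libraries at 72.8, 64.0 and 60.1 CPM. Here the lowest WT library, replicate 3, lay inside the PKP4-KO range, and the log2 difference was -0.50 (standard error 0.18, adjusted p = 0.021, edgeR). That call was lost in DESeq2 (adjusted p = 0.0522), when only the compared groups entered the fit (adjusted p = 0.0641), with an offset for gene length (adjusted p = 0.0924), and when any 1 of 4 libraries was left out (WT replicate 1 or 2, PKP4-KO replicate 2 or 3), where it ranged from -0.37 to -0.49.

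Cdh3, which encodes P-cadherin, was not called in 3 of the 4 conditions. At 24 h in LCM it stood at 70.6, 84.1 and 79.1 CPM in WT and 73.0, 99.4 and 110.3 CPM in PKP4-KO libraries. The PKP4-KO range enclosed the upper part of the WT range, and the log2 difference of 0.27 (95% interval -0.013 to 0.56) did not pass the test in edgeR. Without PKP4-KO replicate 1, a library with a length trend, it was 0.43 and was called higher (adjusted p = 0.0188, edgeR). In HCM at 24 h, where Cdh1 showed its largest difference, Cdh3 stood at 78.0, 71.0 and 80.9 CPM in WT and 76.6, 75.1 and 71.1 CPM in PKP4-KO libraries. These ranges overlapped almost entirely, with a log2 difference of -0.045 (95% interval -0.33 to 0.24). After 72 h in LCM the log2 difference was -0.15 (95% interval -0.44 to 0.14). Cdh3 was lower only at 72 h in HCM, among the 4 conditions, where WT libraries had 45.7, 50.03 and 50.04 CPM and PKP4-KO libraries 31.6, 22.2 and 32.1 CPM. The 2 lines did not overlap there, and the log2 difference was -0.76 (standard error 0.14, adjusted p = 7.06e-05, edgeR).

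Ctnna1 (ENSMUSG00000037815, with 18 exons on chr18:35226033-35387833), which encodes the actin-linking α-catenin, was lower in PKP4-KO cells in every condition without overlap between the lines. After 24 h in LCM WT libraries had 332, 339 and 321 CPM and PKP4-KO libraries 156, 224 and 220.3 CPM, a log2 difference of -0.73 (standard error 0.15, adjusted p = 0.0002, edgeR). After 72 h in LCM they had 274, 307 and 288 CPM and 189.8, 158 and 198 CPM, with a log2 difference of -0.67 (standard error 0.15, adjusted p = 0.000431, edgeR). The WT libraries of both times stood close together and the PKP4-KO libraries well below them. In HCM the difference was -0.99 (standard error 0.15, adjusted p = 2.29e-06, edgeR) at 24 h, from 346 ± 18.6 CPM in WT to 174 ± 11.4 CPM in PKP4-KO cells (SD, n = 3 each). At 72 h in HCM it was -1.003 (standard error 0.15, adjusted p = 2.17e-06, edgeR), from 228 ± 29.0 to 114 ± 9.42 CPM. Genes within 1.25 times the length of Ctnna1 had a median log2 difference of -0.41 in that last comparison and of -0.044 at 24 h in HCM.

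Ctnnb1, which encodes β-catenin, was the member with no call in any of the 4 conditions. At 24 h in HCM its level was 538, 318 and 476 CPM in WT and 558, 678 and 326 CPM in PKP4-KO libraries. The spread inside each line was wide, and the lowest library of each line, WT replicate 2 and PKP4-KO replicate 3, was 1 of the 7 libraries with a length trend. Between the lines the log2 difference was 0.23 (95% interval -0.33 to 0.79). In LCM at 24 h the libraries had 478, 457 and 459 CPM in WT and 256, 466 and 435 CPM in PKP4-KO cells, with a log2 difference of -0.27 (95% interval -0.83 to 0.29). In LCM at 72 h the PKP4-KO libraries (387, 264 and 450.2 CPM) all lay below the WT libraries (499, 566 and 551 CPM), but the difference of -0.55 did not pass the test in edgeR (adjusted p = 0.1). After 72 h in HCM it was -0.30 (95% interval -0.86 to 0.27). Without the 7 libraries Ctnnb1 was called lower at 72 h, at -0.38 in LCM (adjusted p = 0.0153, edgeR) and -0.47 in HCM (adjusted p = 0.00174, edgeR), and not at 24 h.

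Afdn, which encodes afadin, the link from nectins to actin, was lower in PKP4-KO cells at 24 h in HCM. WT libraries had 117, 67.8 and 77.0 CPM and PKP4-KO libraries 33.6, 39.6 and 32.9 CPM. The highest PKP4-KO library lay well under the lowest WT library, and the log2 difference was -1.30 (standard error 0.26, adjusted p = 0.000147, edgeR). In LCM the libraries of the 2 lines did not overlap either, with 64.9, 59.3 and 56.1 CPM in WT and 28.1, 43.2 and 45.8 CPM in PKP4-KO libraries at 24 h, yet the log2 difference of -0.62 was not called by edgeR (adjusted p = 0.0536). At 72 h in LCM it was -0.50 (adjusted p = 0.111, edgeR). In HCM at 72 h it was -0.61 (standard error 0.26, adjusted p = 0.0499, edgeR), with WT replicate 3 at the level of the PKP4-KO libraries. That call held in 4 of 14 alternative fits. It was lost in DESeq2 (adjusted p = 0.106), with the replicate block (adjusted p = 0.0531, edgeR) and when WT replicate 1 or 2 or PKP4-KO replicate 2 or 3 was left out (-0.47 to -0.56). Afdn is a long gene, and genes within 1.25 times its length had median log2 differences of -0.40 and -0.48 in LCM at 24 h and 72 h, and of -0.24 and -0.70 in HCM at 24 h and 72 h. With an offset for gene length the 72 h HCM value became 0.026 (adjusted p = 0.901, edgeR).

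Nectin1 was lower in PKP4-KO cells in 3 of 4 conditions. After 24 h in HCM it stood at 124, 147 and 151 CPM in WT and 68.8, 65.2 and 87.5 CPM in PKP4-KO libraries, which did not overlap, with a log2 difference of -0.93 (standard error 0.13, adjusted p = 8.34e-07, edgeR). In LCM it had 88.2, 93.9 and 95.5 CPM in WT and 68.6, 61.7 and 68.1 CPM in PKP4-KO libraries at 24 h, a log2 difference of -0.48 (standard error 0.13, adjusted p = 0.00328, edgeR). The LCM difference at 72 h was -0.69 (standard error 0.13, adjusted p = 7.14e-05, edgeR). Both LCM differences lost their call with an offset for gene length (adjusted p = 0.117 and 0.076, edgeR). After 72 h in HCM the lines overlapped, with 79.1, 86.3 and 96.0 CPM in WT and 80.9, 67.7 and 72.0 CPM in PKP4-KO libraries, and the difference of -0.24 (95% interval -0.51 to 0.021) was not called.

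Nectin2 and Nectin4 showed the largest differences of the 8 genes at 24 h in HCM. The level of Nectin2 there was 55.1, 54.2 and 72.2 CPM in WT and 9.04, 8.70 and 7.90 CPM in PKP4-KO libraries. All 3 PKP4-KO libraries stood close together and far under the WT libraries, with a log2 difference of -2.82 (standard error 0.15, adjusted p = 7.83e-15, edgeR), a fall of 7.06-fold. In LCM WT libraries had 17.3, 20.4 and 21.4 CPM and PKP4-KO libraries 7.05, 6.68 and 6.42 CPM at 24 h, a log2 difference of -1.55 (standard error 0.15, adjusted p = 1.46e-09, edgeR). At 72 h in LCM the values were 22.0, 19.7 and 21.8 CPM and 8.72, 7.63 and 7.05 CPM, a log2 difference of -1.44 (standard error 0.15, adjusted p = 5.03e-09, edgeR). The separation in LCM was thus complete at both times. In HCM at 72 h it was narrow, with 22.4, 29.1 and 33.0 CPM in WT and 21.9, 18.6 and 19.0 CPM in PKP4-KO libraries and a log2 difference of -0.50 (standard error 0.14, adjusted p = 0.00467, edgeR). A non-coding gene on the opposite strand, Gm20512, had at most 13.1% of the Nectin2 counts in any library, and the strand setting of the counting is not given in the sources used here.

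Nectin4, expressed in stratified epithelia, was the other member with a large difference at 24 h. In LCM WT libraries had 33.6, 42.4 and 39.9 CPM and PKP4-KO libraries 10.9, 6.12 and 7.31 CPM, a log2 difference of -2.26 (standard error 0.25, adjusted p = 2.81e-08, edgeR). In HCM they had 108, 167 and 102 CPM and 20.8, 14.9 and 23.7 CPM, a log2 difference of -2.66 (standard error 0.25, adjusted p = 7.42e-10, edgeR). The groups lay far apart in both media. At 72 h the picture differed by medium. In LCM the libraries stood at 49.6, 47.5 and 53.7 CPM in WT and 30.2, 38.5 and 23.9 CPM in PKP4-KO cells, a log2 difference of -0.70 (standard error 0.24, adjusted p = 0.0172, edgeR), which was not called without WT replicate 3 (-0.66, adjusted p = 0.0505) or without PKP4-KO replicate 3 (-0.56, adjusted p = 0.0885). In HCM they stood at 71.0, 78.0 and 136 CPM in WT and 116, 124 and 111 CPM in PKP4-KO cells. WT replicate 3, a library with a length trend, lay above all PKP4-KO libraries while the other two WT libraries lay below them, and the difference of 0.31 (95% interval -0.18 to 0.79) was not called. Without that library it was 0.64 and was called higher (adjusted p = 0.0241, edgeR), and without TMM scaling it was -0.40 and was called lower (adjusted p = 0.0229, edgeR).

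**Figure D1:**
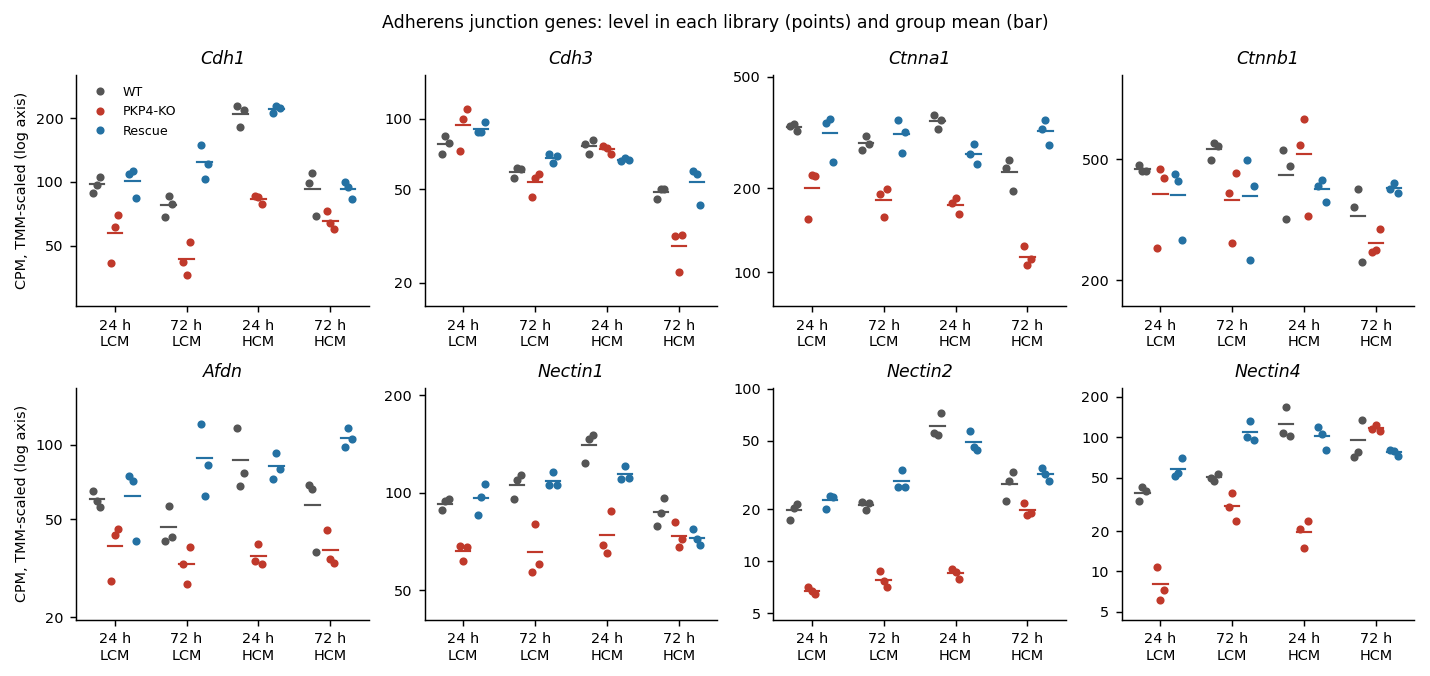
Level of each of the 8 genes in each of the 36 libraries (points) with the group mean (bar), as TMM-scaled CPM on a log axis, by condition and cell line. For Nectin2 at 24 h in HCM the 3 WT libraries sit between 54.2 and 72.2 CPM and the 3 PKP4-KO libraries between 7.90 and 9.04 CPM, whereas for Cdh3 in the same condition both lines sit between 71.0 and 80.9 CPM.

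**Figure D2:**
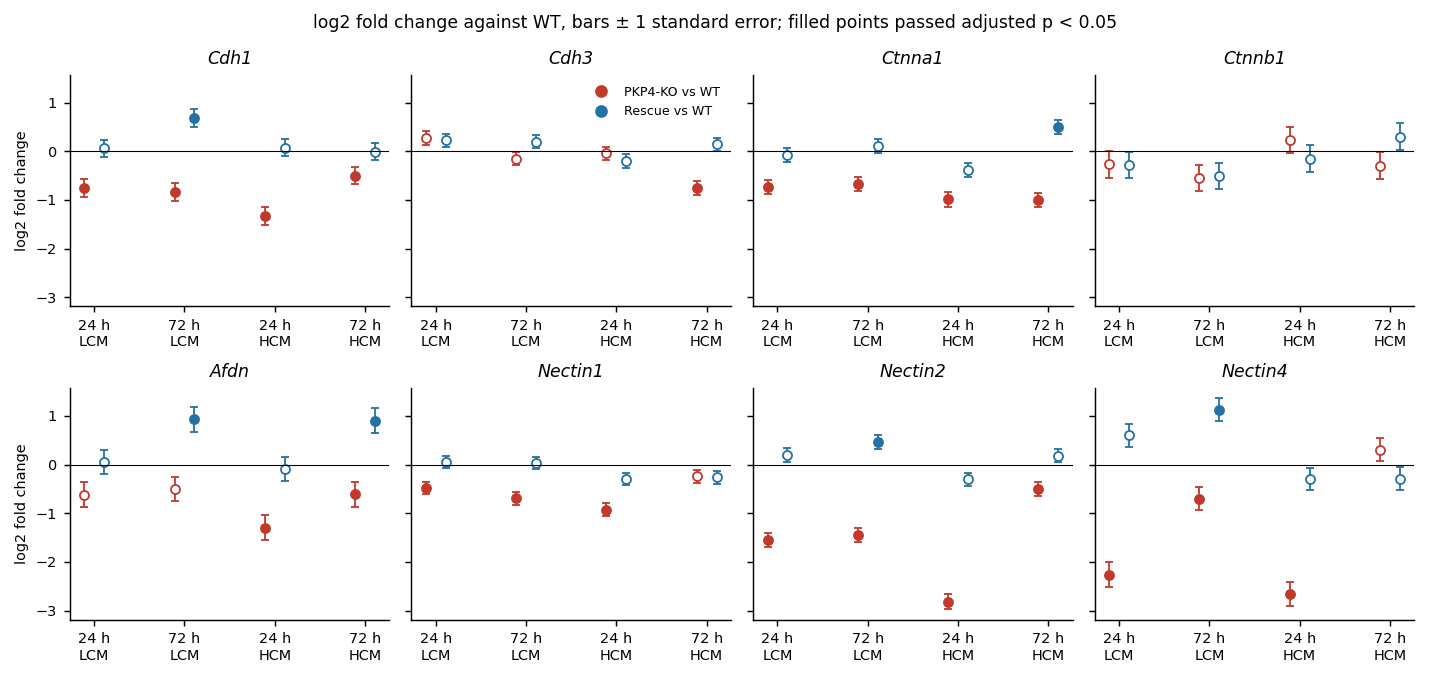
Log2 difference of PKP4-KO from WT and of Rescue from WT for each gene in each condition, with bars of the standard error to each side, which are narrower than a 95% interval. Cdh1 and Ctnna1 are below 0 in PKP4-KO cells in all 4 conditions, and Nectin4 goes from -2.66 at 24 h in HCM to 0.31 at 72 h in HCM.

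Rescue cells were compared with WT to ask whether members returned to the WT level, and with PKP4-KO cells to ask whether they moved at all. Against WT, no member was called at 24 h, in LCM (background 24.8% of tested genes in either direction) or in HCM (23.2%). After 72 h in LCM 4 of 8 members were called higher than in WT, where 17.9% of all genes were, and at 72 h in HCM 2 of 8 were called higher against 19.5% of all genes. By edgeR with all libraries no member was called lower than in WT in any condition. Under the alternatives, Ctnna1 was called lower at 24 h in HCM in 4 fits, among them DESeq2 (-0.38, adjusted p = 0.0141), Ctnnb1 and Nectin2 were called lower there without the 7 libraries, and Nectin4 was called higher at 24 h in LCM in 3 fits. Against PKP4-KO cells, 6 of 8 members were called higher at 24 h in LCM (18.2% of all genes), 7 at 72 h in LCM (23.3%), 6 at 24 h in HCM (21.7%) and 5 at 72 h in HCM (37.2%), and 1 was called lower at 72 h in HCM (29.5%). Of these, Cdh3 at 72 h in LCM (0.35, adjusted p = 0.045, edgeR) was called in 7 of 14 alternative fits, Afdn at 24 h in LCM (0.67, adjusted p = 0.0422, edgeR) in 6 of 14 and Cdh1 at 72 h in HCM (0.49, adjusted p = 0.0175, edgeR) in 10 of 14. With the offset for gene length that value of Cdh1 was 0.18 (adjusted p = 0.278, edgeR), and in DESeq2 it was 0.36 (adjusted p = 0.0562). Leaving out 1 library ended the call of Cdh3 for PKP4-KO replicate 1 or 2 or Rescue replicate 1 or 3 (0.26 to 0.38), that of Afdn for PKP4-KO replicate 1 or 2 or Rescue replicate 1 or 2 (0.49 to 0.75) and that of Cdh1 for PKP4-KO replicate 3 or Rescue replicate 1 (both 0.44). The Rescue comparisons share the PKP4-KO or WT libraries with the comparison of PKP4-KO and WT, so their opposite signs are not independent of it. Rescue cells also differ from the others by the virus and the selection, and these cannot be told apart from PKP4 itself.

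Cdh1 at 24 h in HCM had 210.5, 228 and 224 CPM in the 3 Rescue libraries, which overlapped the WT range of the same condition. The log2 difference from WT was 0.076 (95% interval -0.29 to 0.44), and that from PKP4-KO was 1.41 (standard error 0.18, adjusted p = 2.43e-07, edgeR). At 72 h in LCM the Rescue libraries, at 149.5, 103 and 121 CPM, lay above every WT library, with a log2 difference from WT of 0.68 (standard error 0.18, adjusted p = 0.00348, edgeR). That call was lost without TMM scaling (adjusted p = 0.0754). Ctnna1 in Rescue cells stood at 264, 289 and 245 CPM at 24 h in HCM, between the PKP4-KO and WT libraries and overlapping neither, with log2 differences of -0.38 from WT (adjusted p = 0.0562, edgeR) and 0.61 from PKP4-KO (adjusted p = 0.00121, edgeR). In HCM at 72 h it stood at 326, 351 and 286 CPM, above every WT library, with a log2 difference from WT of 0.49 (standard error 0.15, adjusted p = 0.00934, edgeR), which was not called without WT replicate 3 (0.39, adjusted p = 0.0766) or Rescue replicate 2 (0.42, adjusted p = 0.0565).

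Afdn rose above WT in Rescue cells at 72 h. In HCM the Rescue libraries had 97.9, 118 and 106 CPM against 68.7, 66.2 and 36.8 CPM in WT, without overlap, a log2 difference of 0.90 (standard error 0.26, adjusted p = 0.00736, edgeR). Without WT replicate 3 it was 0.66 and not called (adjusted p = 0.0716). In LCM they had 122, 62.1 and 82.5 CPM against 40.8, 56.6 and 42.4 CPM in WT, a log2 difference of 0.93 (standard error 0.26, adjusted p = 0.00561, edgeR), which lost its call without Rescue replicate 1 (0.63, adjusted p = 0.0764) or without TMM scaling (adjusted p = 0.0535). Nectin2 in Rescue cells at 24 h in HCM had 56.5, 46.1 and 44.4 CPM, overlapping WT and more than every PKP4-KO library, with a log2 difference from PKP4-KO of 2.52 (standard error 0.15, adjusted p = 8.6e-14, edgeR). After 72 h in LCM its difference from WT was 0.46 (standard error 0.14, adjusted p = 0.0129, edgeR), lost without WT replicate 2 or Rescue replicate 2. Nectin4 in Rescue cells at 72 h in LCM stood at 100.1, 132 and 96.2 CPM, above all 3 WT libraries, with a log2 difference from WT of 1.12 (standard error 0.24, adjusted p = 0.000455, edgeR). At 72 h in HCM it was the member called lower in Rescue than in PKP4-KO cells, at 80.9, 79.7 and 72.6 CPM and a log2 difference of -0.59 (standard error 0.24, adjusted p = 0.0288, edgeR), which turned to 0.59 without TMM scaling and was not called when any 1 of 5 libraries was left out (-0.54 to -0.61).

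Calcium addition was examined within each line, as HCM against LCM at the same time. In WT cells at 24 h, 4 of 8 members were called higher in HCM and none lower, where 7.69% of tested genes were called higher and 6.48% lower. Nectin4 went from 33.6, 42.4 and 39.9 CPM in LCM to 108, 167 and 102 CPM in HCM, a log2 difference of 1.70 (standard error 0.24, adjusted p = 7.39e-06, edgeR) that was 1.44 without HCM replicate 2, a library with a length trend. Nectin2 went from 19.7 ± 2.12 to 60.5 ± 10.2 CPM (SD, n = 3 each), a log2 difference of 1.62 (standard error 0.14, adjusted p = 2.81e-09, edgeR). Cdh1 went from 97.3 ± 8.72 to 209 ± 25.2 CPM, a log2 difference of 1.105 (standard error 0.18, adjusted p = 4.99e-05, edgeR). Nectin1, the fourth gene called, had a log2 difference of 0.60 (standard error 0.13, adjusted p = 0.00132, edgeR), which was 0.30 and not called without TMM scaling (adjusted p = 0.12). The libraries of the 2 media did not overlap for 5 of 8 members, these 4 and Afdn, where 28.4% of all tested genes did not. The difference of Afdn, 0.54, was not called (adjusted p = 0.183, edgeR), while Cdh3 had -0.024 (95% interval -0.31 to 0.26) and Ctnna1 0.066 (95% interval -0.23 to 0.36).

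Summed over the 6 calcium comparisons of 8 members each, there were 17 calls of members, and 27 without the 7 libraries with a length trend. Calls over all genes went from 16304 to 21322.

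In PKP4-KO cells at 24 h, few genes of any kind were called between the media, 1.44% higher and 1.4% lower, and of the members 1 of 8 was called higher. That gene was Nectin4, with 10.9, 6.12 and 7.31 CPM in LCM and 20.8, 14.9 and 23.7 CPM in HCM, a log2 difference of 1.29 (standard error 0.25, adjusted p = 0.00237, edgeR). The HCM libraries all lay above the LCM libraries and all below the WT libraries in LCM. The call was lost when only the compared groups entered the fit (adjusted p = 0.237). Cdh1 had 41.5, 61.4 and 69.7 CPM in LCM and 85.5, 84.8 and 79.1 CPM in HCM, without overlap, and its log2 difference of 0.53 was not called (adjusted p = 0.117, edgeR), although it was in DESeq2 (adjusted p = 0.0287). Nectin2 had 7.05, 6.68 and 6.42 CPM in LCM and 9.04, 8.70 and 7.90 CPM in HCM, a log2 difference of 0.35 (95% interval 0.047 to 0.66) that was not called.

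In Rescue cells at 24 h, 3 of 8 members were called higher in HCM (6% of tested genes) and 1 lower (5.96%). Cdh1 had 108, 112 and 83.9 CPM in LCM and 210.5, 228 and 224 CPM in HCM, a log2 difference of 1.12 (standard error 0.18, adjusted p = 5.39e-05, edgeR). Nectin2 had a log2 difference of 1.12 (standard error 0.14, adjusted p = 1.75e-06, edgeR), from 22.5 ± 2.14 to 49.0 ± 6.54 CPM. The media did not overlap for either gene. Nectin4 had 0.80 (standard error 0.24, adjusted p = 0.0219, edgeR), a call that was lost without Rescue LCM replicate 1 or 2 or HCM replicate 1 or 2 (0.67 to 0.78). Cdh3 was the member called lower, at -0.45 (standard error 0.14, adjusted p = 0.0325, edgeR), and this call did not hold when any single library was left out.

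At 72 h the pattern between the lines was different. WT cells had 2 of 8 members called higher in HCM (10.6% of tested genes), Nectin4 at 0.91 (standard error 0.24, adjusted p = 0.00551, edgeR) and Nectin2 at 0.41 (standard error 0.14, adjusted p = 0.0374, edgeR). The Nectin4 call was lost without WT HCM replicate 3 (0.57, adjusted p = 0.0999). That of Nectin2 held in 5 of 14 alternative fits and when 1 of 6 libraries, HCM replicate 1, was left out. Without any other of the 6 it was 0.28 to 0.43 (adjusted p = 0.0659 to 0.246), and without TMM scaling 0.081 (adjusted p = 0.729). PKP4-KO cells had 3 called higher (12.9% of tested genes) and 2 lower (19.7%). Nectin4 had 30.2, 38.5 and 23.9 CPM in LCM and 116, 124 and 111 CPM in HCM there, a log2 difference of 1.93 (standard error 0.24, adjusted p = 7.51e-07, edgeR), and Nectin2 had 8.72, 7.63 and 7.05 and 21.9, 18.6 and 19.0 CPM, a log2 difference of 1.34 (standard error 0.15, adjusted p = 9.66e-08, edgeR). Both genes stood well above their LCM level in HCM, without overlap. Cdh1 rose by 0.59 (adjusted p = 0.0124, edgeR), a call lost without LCM replicate 2 (0.47, adjusted p = 0.0654) or HCM replicate 1 (0.51, adjusted p = 0.0655), and -0.12 without TMM scaling. Cdh3, at -0.90 (standard error 0.14, adjusted p = 1.85e-05, edgeR), and Ctnna1, at -0.67 (standard error 0.15, adjusted p = 0.000739, edgeR), were lower in HCM. In Rescue cells 1 of 8 was called, Nectin1, lower in HCM at -0.58 (standard error 0.13, adjusted p = 0.00117, edgeR), where 12% of tested genes were called lower.

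**Figure D3:**
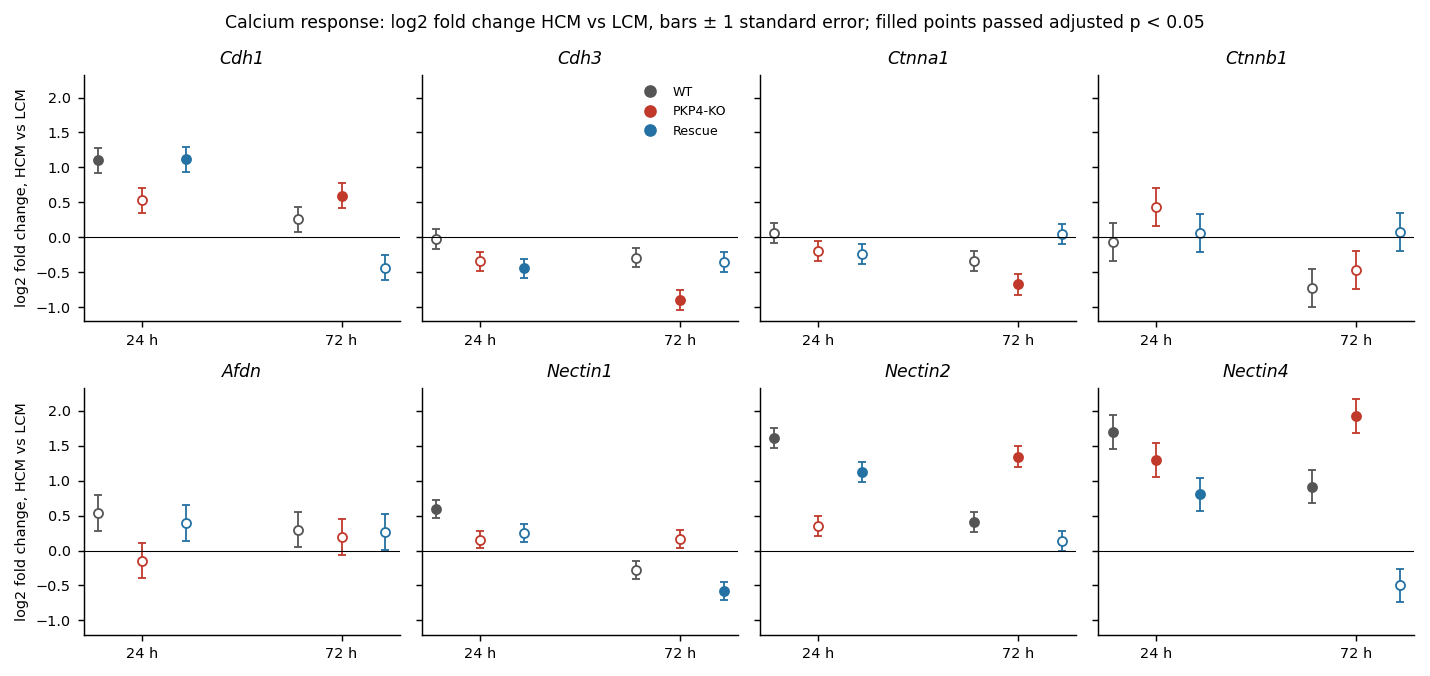
Log2 difference of HCM from LCM for each gene in WT, PKP4-KO and Rescue cells at 24 h and 72 h, with bars of the standard error to each side, which are narrower than a 95% interval. At 24 h Nectin2 stands at 1.62 in WT cells, 0.35 in PKP4-KO cells and 1.12 in Rescue cells, and at 72 h at 0.41, 1.34 and 0.14.

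Time in culture was compared within each line and medium. In LCM no member was called in WT cells by edgeR with all libraries, where 9.96% of tested genes were called in either direction. Cdh3, at -0.39 (adjusted p = 0.0762, edgeR), was called lower in 5 of 14 alternative fits, among them DESeq2 (adjusted p = 0.0236), and without the 7 libraries with a length trend Cdh1 was called lower (-0.32, adjusted p = 0.0465) and Nectin4 higher (0.39, adjusted p = 0.0424). In HCM 5 of 8 were called lower at 72 h than at 24 h in WT cells (8.69% of tested genes), led by Cdh1 at -1.17 (standard error 0.18, adjusted p = 2.6e-05, edgeR) and Nectin2 at -1.11 (standard error 0.14, adjusted p = 2.15e-06, edgeR), followed by Nectin1 (-0.69), Cdh3 (-0.66) and Ctnna1 (-0.60). The WT libraries of the 2 times did not overlap for these 5 of 8 members and for 29% of all tested genes. With only the compared groups in the fit the calls of Ctnna1 and Nectin1 were lost (adjusted p = 0.0886 and 0.0617, edgeR), and with the offset for gene length that of Nectin1 (adjusted p = 0.0642, edgeR). Rescue cells in HCM had 3 of 8 lower (10.7% of tested genes), Cdh1 at -1.26, Nectin1 at -0.65 and Nectin2 at -0.61, and in LCM they had Nectin4 higher at 0.91 (6.84%), which was called in 10 of 14 alternative fits and not when Rescue replicate 1 or 2 at 24 h or 2 at 72 h was left out (0.75 to 0.85). Summed over the 6 time comparisons of 8 members each, there were 16 calls of members, and 25 without the 7 libraries with a length trend. Calls over all genes went from 21739 to 28726, with 15114 and 15425 genes tested in each comparison.

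PKP4-KO cells in HCM had 2 of 8 members higher at 72 h (24.3% of tested genes) and 3 lower (31.4%). The higher ones were nectins. Nectin4 went from 20.8, 14.9 and 23.7 CPM at 24 h to 116, 124 and 111 CPM at 72 h, a log2 difference of 2.57 (standard error 0.25, adjusted p = 1.76e-09, edgeR). Nectin2 went from 9.04, 8.70 and 7.90 CPM to 21.9, 18.6 and 19.0 CPM, a log2 difference of 1.21 (standard error 0.15, adjusted p = 1.09e-07, edgeR), which was 0.14 and not called without TMM scaling (adjusted p = 0.439). For both, every 72 h library lay above every 24 h library. The lower ones were Cdh3 at -1.37 (standard error 0.14, adjusted p = 7e-09, edgeR), Ctnnb1 at -0.97 (standard error 0.28, adjusted p = 0.00394, edgeR) and Ctnna1 at -0.62 (standard error 0.15, adjusted p = 0.000811, edgeR). In LCM Nectin4 was higher at 72 h (1.94, adjusted p = 8.3e-07, edgeR, against 12.4% of tested genes) and Cdh3 lower (-0.81, adjusted p = 6.06e-05, edgeR, against 13.7%).

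Whether the difference between PKP4-KO and WT itself changed with medium or time was tested as a difference of log2 differences. Between 24 h and 72 h in HCM it changed for 5 of 8 members, 4 upward (10.8% of tested genes) and 1 downward (15.8%). Nectin4 moved from -2.66 to 0.31, a change of 2.97 (standard error 0.34, adjusted p = 1.28e-07, edgeR), and Nectin2 from -2.82 to -0.50, a change of 2.31 (standard error 0.20, adjusted p = 1.12e-09, edgeR). Cdh1 changed by 0.83 (standard error 0.25, adjusted p = 0.0144, edgeR) and Nectin1 by 0.68 (standard error 0.18, adjusted p = 0.00555, edgeR), and both turned to about 0 or below without TMM scaling, at -0.023 and -0.12. Cdh3 moved the other way, by -0.71 (standard error 0.20, adjusted p = 0.00814, edgeR). In LCM the change over time was called for Nectin4 alone among the members, at 1.56 (standard error 0.34, adjusted p = 0.00452, edgeR) (background 5.25% in either direction). Between the media it was called for Nectin2 alone, with -1.26 (standard error 0.20, adjusted p = 0.000247, edgeR) at 24 h (4.02%) and 0.94 (standard error 0.20, adjusted p = 0.00441, edgeR) at 72 h (5.74%), of which the second was 0.58 and not called without TMM scaling (adjusted p = 0.103). Summed over the 4 tests of this kind with 8 members each, there were 8 calls of members, and 15 without the 7 libraries with a length trend. Calls over all genes went from 6286 to 12234, with 15114 and 15425 genes tested in each.

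Ratios of reads between 2 members within a library do not depend on how libraries are scaled, so they show unequal change of a pair directly. Cdh3 to Cdh1, the P-cadherin to E-cadherin pair, was 0.796, 0.865 and 0.746 in the WT libraries at 24 h in LCM and 1.76, 1.62 and 1.58 in the PKP4-KO libraries. At 24 h in HCM it was 0.341, 0.392 and 0.371 in WT and 0.896, 0.886 and 0.899 in PKP4-KO cells. P-cadherin reads thus outnumbered E-cadherin reads in every PKP4-KO library in LCM at 24 h and in no WT library. The ratio in the Rescue libraries of that condition was 0.810, 0.780 and 1.16. Over the 4 conditions the log2 ratio was 0.68 higher in PKP4-KO than in WT libraries (exact permutation test within conditions, two-sided, 160000 permutations, p = 0.00128, adjusted over 8 ratio tests 0.0034). The difference was 1.04 and 0.69 in LCM at 24 h and 72 h and 1.28 at 24 h in HCM, but -0.30 at 72 h in HCM. In Rescue cells it was -0.12 relative to WT (exact permutation p = 0.245).

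Ctnnb1 to Cdh1 was 0.62 higher on the log2 scale in PKP4-KO than in WT libraries (exact permutation p = 8.75e-05, adjusted 0.00035), with 0.47, 0.26, 1.53 and 0.21 in LCM at 24 h, LCM at 72 h, HCM at 24 h and HCM at 72 h. In HCM at 24 h the ratio was 2.35, 1.75 and 2.18 in WT and 6.52, 8.003 and 4.13 in PKP4-KO libraries, without overlap. In Rescue cells the log2 difference from WT was -0.37 (exact permutation p = 0.0215, adjusted 0.0286), which no longer passed the test whichever replicate number was left out (p = 0.0633 to 0.119). Ctnna1 to Ctnnb1 was -0.61 in PKP4-KO relative to WT libraries (exact permutation p = 7.5e-05, adjusted 0.00035), with -0.43, -0.09, -1.19 and -0.74 in the same order. After 24 h in HCM it was 0.676, 1.03 and 0.733 in WT and 0.317, 0.272 and 0.496 in PKP4-KO libraries. In Rescue cells the value was 0.20 (exact permutation p = 0.0741). Nectin4 to Nectin1 was -0.73 in PKP4-KO relative to WT libraries (exact permutation p = 0.0129, adjusted 0.0207, and 0.0895 without replicate 3), made up of -1.80 and -1.72 at 24 h in LCM and HCM and of -0.02 and 0.61 at 72 h. In Rescue cells it was 0.41 (exact permutation p = 0.00785, adjusted 0.0157, and 0.11 without replicate 1). The smallest p these permutations can give is 1.25e-05. In a library with a length trend the ratio of a pair of unequal length moves with that trend.

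**Figure D4:**
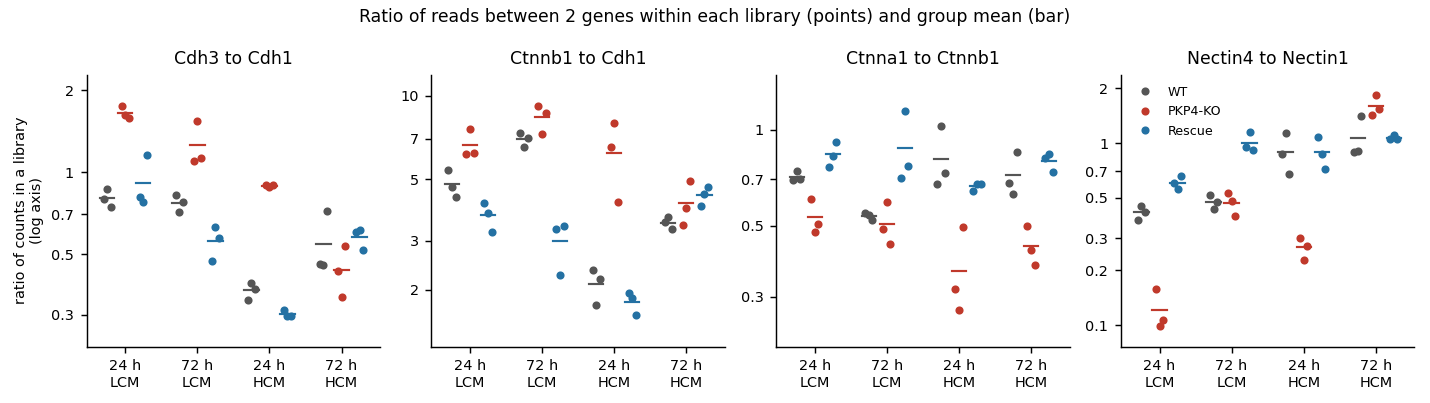
Ratio of reads between 2 genes within each library (points) with the group mean (bar), on a log axis, by condition and cell line. The Cdh3 to Cdh1 ratio is 1.58 to 1.76 in the PKP4-KO libraries at 24 h in LCM and 0.75 to 0.86 in the WT libraries of that condition.

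The other genes of the junction were taken from a list of 32, of which 27 were tested. In PKP4-KO against WT 2 were called higher and 13 lower at 24 h in LCM, 3 and 12 at 72 h in LCM, 4 and 13 at 24 h in HCM, and 4 and 13 at 72 h in HCM, with median log2 differences of -0.412, -0.248, -0.404 and -0.585. Of all tested genes 19.7%, 21.3%, 20.7% and 21.9% were called higher and 20.6%, 23.8%, 22.2% and 29.9% lower in these conditions in turn. In Rescue against WT the counts were 3 and 5, 5 and 9, 2 and 8, and 9 and 5 in the same order, where 13.5%, 17.9%, 11.8% and 19.5% of all genes were called higher and 11.4%, 14.6%, 11.4% and 16.7% lower. Vcl, which encodes the α-catenin-binding vinculin, was lower in PKP4-KO cells in all 4 conditions (-0.84, -1.05, -0.75 and -0.70, each called). Lima1, an actin and α-catenin binding protein, was likewise lower in all 4 (-0.64, -0.97, -0.54 and -1.12). Plekha7, which ties p120-catenin to microtubules, was lower in 3 of 4 and had -0.40 without a call at 24 h in HCM. Ctnnd1, the gene of p120-catenin, was called at 24 h in HCM only, at -0.75 (standard error 0.31, adjusted p = 0.0499, edgeR). Jup, the gene of plakoglobin, which can replace β-catenin at cadherins, was lower at 24 h in HCM, at -1.15 (standard error 0.20, adjusted p = 2.05e-05, edgeR) and higher at 72 h in HCM, at 0.75 (standard error 0.20, adjusted p = 0.00209, edgeR). Pvr, a nectin-like receptor that binds Nectin3, went both ways, with -1.42 at 24 h and 1.396 at 72 h in HCM, both called.

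Classical N-cadherin was near absent, with Cdh2 at 0 to 17 counts in WT libraries, 0 to 14 in Rescue libraries and 0 counts in all 12 PKP4-KO libraries, where 3 counts, the upper limit that a count of 0 allows, correspond to at most 0.2175 CPM of the library total and 0.436 CPM after TMM scaling, so it was not tested. Nectin3 was tested but had at most 12 counts in any WT and 7 in any PKP4-KO library, and its call at 24 h in LCM (-2.59) rests on those counts.

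Known regulators of Cdh1 transcription were counted as 6 repressors, of which 5 were tested, and 5 activators, all tested. In PKP4-KO against WT the repressors had 2 called higher and 2 lower at 24 h in LCM, 1 and 1 at 72 h in LCM, 2 and 2 at 24 h in HCM, and 1 and 3 at 72 h in HCM. With 19.7% to 21.9% of all tested genes called higher and 20.6% to 29.9% lower, counts of 1 or 2 among 5 are near that background. Snai1, which encodes the E-box-binding repressor Snail, had 0 to 6 counts in the 12 WT libraries, 149 to 1597 counts in the 12 PKP4-KO libraries and 0 to 15 counts in the 12 Rescue libraries. Every PKP4-KO library lay far above every library of the other lines, with 16.9 to 76.9 CPM and a median of 40.6, and the difference from WT was called in all 4 conditions (adjusted p = 1.08e-10, 5.83e-10, 2.5e-10 and 4.2e-09, edgeR). Snai1 lies on chromosome 2, as does Pkp4. The 90 tested genes within 5 Mb of Snai1 had a median log2 difference of 0.56, 0.45, 0.51 and 0.39 between PKP4-KO and WT. In the same order of conditions, their median was -0.071, -0.062, -0.074 and -0.088 between Rescue and WT. Between Rescue and PKP4-KO it was -0.586, -0.531, -0.632 and -0.406. The cause of these medians was not tested. The distance from Snai1 to Pkp4 was not examined. Medians between PKP4-KO and WT around Afdn on chromosome 17 were 0.438, 0.502, 0.421 and 0.311, and around Nectin4 on chromosome 1 they were 0.255, 0.517, 0.175 and 0.46. Around the other members they ranged from -0.256 to 0.337. The level of Snai1 moved with the lower Cdh1 between the lines, but its part in the level of Cdh1 was not tested. Snai2, the gene of the related repressor Slug, went the other way, with -1.18, -0.55 and -2.02 called lower at 24 h in LCM, 24 h in HCM and 72 h in HCM, and -0.15 not called at 72 h in LCM. Zeb1 had at most 7 counts in any library.

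The activators had 1 called higher and 3 lower at 24 h in LCM, 3 and 0 at 72 h in LCM, 1 and 3 at 24 h in HCM, and 3 and 1 at 72 h in HCM, against 19.7% to 21.9% of all tested genes higher and 20.6% to 29.9% lower. Grhl2, an epithelial activator of Cdh1, was called lower only at 72 h in HCM, at -0.65 (standard error 0.24, adjusted p = 0.0243, edgeR), among the 4 conditions. Grhl3, a Grainyhead factor of late epidermal differentiation, was lower at 24 h (-1.31 in LCM and -1.17 in HCM) and higher at 72 h (1.08 and 1.18), each called. Klf4, a factor of differentiating keratinocytes, had -0.87 and -1.29 at 24 h and 0.93 at 72 h in HCM, each called, and 0.34 at 72 h in LCM, which was not.

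Of 11 β-catenin target genes 7 were tested. In PKP4-KO against WT 2 were called higher and 1 lower at 24 h in LCM, 2 and 2 at 72 h in LCM, 4 and 1 at 24 h in HCM, and 1 and 4 at 72 h in HCM, against the same 19.7% to 21.9% higher and 20.6% to 29.9% lower over all tested genes. Axin2, a general Wnt target, had 29 to 199 counts in the WT libraries, 0 to 37 in those of PKP4-KO and 10 to 115 in those of Rescue cells. It was lower in PKP4-KO cells in each condition (-2.24, -3.84, -1.22 and -5.46) and also lower in Rescue than in WT cells in 3 of 4 conditions (-1.95, -3.11 and -1.98), with -0.93 not called at 72 h in HCM. The value of -5.46 rests on 4, 0 and 0 counts in the PKP4-KO libraries. Ccnd1, a cell cycle target, was higher in PKP4-KO cells in 3 conditions (0.43, 0.32 and 0.70) and lower at 72 h in HCM (-0.75). Myc was called only at 72 h in HCM, lower at -0.98, and Lef1 was too low to test.

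**Figure D5:**
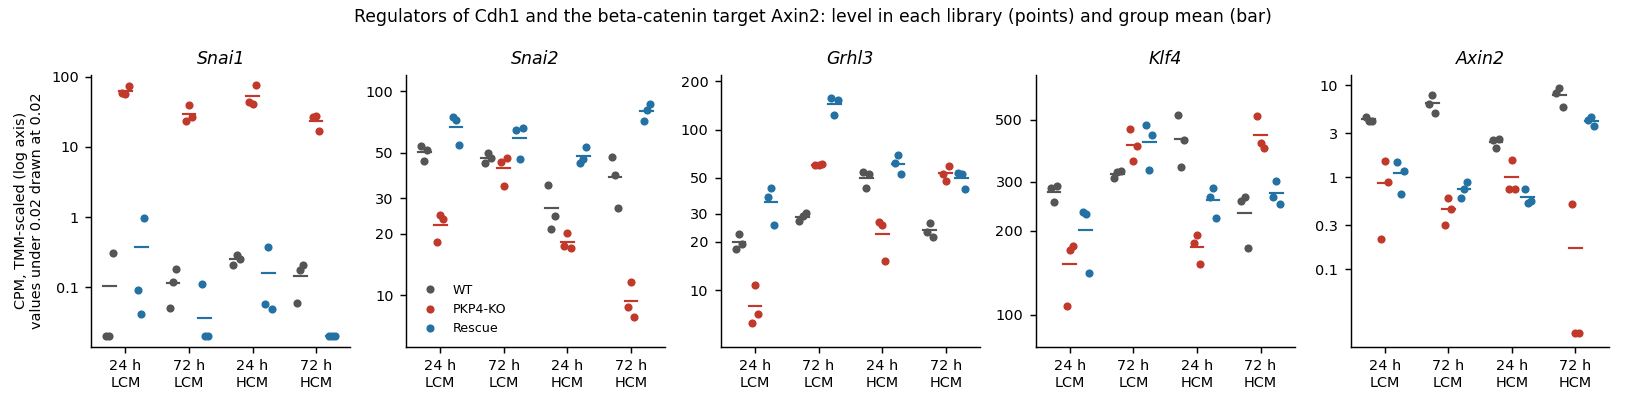
Level of regulators of Cdh1 and of Axin2 in each library (points) with the group mean (bar), as TMM-scaled CPM on a log axis on which values under 0.02 are drawn at 0.02. Snai1 is at 16.9 to 76.9 CPM in the PKP4-KO libraries and at most 0.31 CPM in WT and 0.98 CPM in Rescue libraries.

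Ordered by level over the 12 groups, Cdh1 ran from 221 ± 9.18 CPM in Rescue and 209 ± 25.2 CPM in WT cells at 24 h in HCM down to 43.5 ± 7.90 CPM in PKP4-KO cells at 72 h in LCM. Of the 11 pairs of neighbours in that order 1 did not overlap, the step below WT at 24 h in HCM. Nectin4 and Cdh3 had 4 such steps each, Nectin1 and Nectin2 had 2 each, Ctnna1 had 1, and Ctnnb1 and Afdn had none. No share over all tested genes is given for such steps, so these counts only describe the order within each member. Across the 12 group means of log2 CPM, Nectin2 varied with Nectin4 (Pearson r = 0.871) and with Cdh1 (r = 0.859), and Cdh1 with Nectin1 (r = 0.862). Cdh3 varied little with Cdh1 (r = 0.281) and against Nectin4 (r = -0.473). These r describe 12 groups that share cell lines, media and library scaling. Among 8136 genes averaging 10 CPM or more, those most alike in group means were Erbb2 (r = 0.942) and the desmosomal cadherin gene Dsg3 (r = 0.932) for Cdh1, Extl3 (r = 0.971) and Aqr (r = 0.961) for Cdh3, and Pak1 (r = 0.974) and Rcan3 (r = 0.971) for Ctnna1. For Ctnnb1 Siah1a (r = 0.948) was among them, and for Afdn they were Cldn12 (r = 0.97) and Cttnbp2nl (r = 0.961). For the nectins they included Sdc1 (r = 0.923) for Nectin1, Cers3 (r = 0.972) and Lipg (r = 0.97) for Nectin2, and Arhgap40 (r = 0.986) and Ankrd22 (r = 0.97) for Nectin4.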

How the data were processed

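RNA of 36 libraries was sequenced as strand-specific poly(A) libraries. The authors aligned reads with HISAT2 2.1.0, sorted the alignments and dropped secondary ones with SAMtools 1.10, and counted them per gene with featureCounts 2.0.0 on GRCm39 (mm39), with an added EGFP-PKP4 sequence. The deposited values that the authors made are raw counts, not normalized. The strand setting of the counting is not given in the sources used here, and all 37 mitochondrial genes are at 0. Library totals were 13602728 to 22467187, and 3 counts, the upper limit that a count of 0 allows, equal at most 0.2205 CPM, for counting error only.

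Counts were tested with edgeR 4.0.16 (R 4.3.3) by the quasi-likelihood test in 1 fit over 12 groups, with filterByExpr leaving 15114 genes, TMM scaling, 24 residual degrees of freedom and Benjamini-Hochberg adjustment over all tested genes in each of 29 comparisons. A gene was called at an adjusted p under 0.05. Ratios between members were tested by exact permutation within conditions (numpy 2.4.6). The 95% intervals used a t quantile from scipy 1.17.1. The fit was also run on simulated counts with known changes, whose outcome is not given here. Alternatives were DESeq2 1.42.0, no TMM scaling, other filters, only the compared groups, the replicate number as a block, and each library left out. A fit without 7 libraries and an offset for gene length were chosen after seeing the data. The 3 libraries of a group differed by more than sampling noise in all 36 pairs. The members, and the lists of partners, regulators, targets and markers, were chosen with earlier results of these data known. All members are named with their values. From the lists, genes fixed by name are given whatever they show, and for each member the 2 genes most alike in group means, of which some are not reported here. Positions, exons and promoters come from the GRCm39 genome and its GENCODE annotation, and start sites are those of the canonical transcript.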

Additional observations from a re-analysis of the deposited data

Results flagged for a closer look

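For 5 of the 8 genes the difference between PKP4-KO and WT cells itself differed between times or media by edgeR's test of that difference. Of all tested genes 10.8% were called higher and 15.8% lower for the change over time in HCM, and 5.25%, 4.02% and 5.74% in either direction for the change over time in LCM and for the change between media at 24 h and 72 h. Between 72 h and 24 h in HCM it differed by 0.8327 for Cdh1 (adjusted p = 0.0144), by -0.7141 for Cdh3 (adjusted p = 0.00814), by 0.6834 for Nectin1 (adjusted p = 0.00555), by 2.315 for Nectin2 (adjusted p = 1.12e-09) and by 2.97 for Nectin4 (adjusted p = 1.28e-07), all on the log2 scale and in edgeR. In LCM the same change over time was 1.556 for Nectin4 (adjusted p = 0.00452, edgeR). Between HCM and LCM the Nectin2 difference changed by -1.265 at 24 h (adjusted p = 0.000247, edgeR) and by 0.9356 at 72 h (adjusted p = 0.00441, edgeR). The PKP4-KO libraries at 72 h in HCM, on which the HCM changes over time rest, had the lowest TMM factors, 0.481 to 0.546, and without TMM scaling the median of this change over all genes was -0.90, compared with -0.075 with it.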

How the results depend on the processing

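Of 232 log2 differences of members, those that kept their side of the threshold, with no turn of a called value, numbered 219 with DESeq2, 225 with at least 10 counts in every library, 223 with no filter, 212 with only the compared groups, 202 with an offset for gene length, 193 without TMM scaling and 190 without the 7 libraries with a length trend, and of 1728 values with 1 library left out 1658 did, 58 lost and 12 gained a call. Among all 3584 such values 144 changed sign without being called in either fit, and these count as kept. Without TMM scaling the direction turned, among values called in at least 1 of the 2 fits, for Nectin4 in PKP4-KO against WT at 72 h in HCM (-0.4049), Nectin4 and Nectin1 in Rescue against PKP4-KO at 72 h in HCM (0.5881 and 1.155), Cdh1 and Nectin1 in PKP4-KO cells between the media at 72 h (-0.1184 and -0.5034), Afdn in PKP4-KO cells in HCM over time (-0.9842), and Cdh1 and Nectin1 in the change of the PKP4-KO difference over time in HCM (-0.0226 and -0.1247). All of these use the PKP4-KO libraries at 72 h in HCM, where removing TMM scaling moved the median of all genes from -0.0719 to -0.8328 against WT, and 1268 of 9401 calls were then higher, compared with 3307 of 7831 with it. In Rescue against PKP4-KO in the same condition it moved from 0.1999 to 1.371, with 9877 of 11662 calls higher, compared with 5625 of 10082. With the offset for gene length, chosen after seeing the data, the direction turned, among values called in at least 1 of the 2 fits, for Afdn in PKP4-KO against WT at 72 h in HCM (0.0259) and Nectin1 in PKP4-KO cells in HCM over time (0.5019). The cause was not tested. Calls of members summed over the 6 calcium comparisons were 17, and 27 without the 7 libraries or 26 with the offset, where those over all genes were 16304, 21322 and 17683. Over the 6 time comparisons they were 16, and 25 without the 7 libraries (21739 and 28726 over all genes), and over the 4 differences of the PKP4-KO effect 8, and 15 without them (6286 and 12234). In PKP4-KO against WT the 4 conditions summed to 21 calls, and to 18 to 27 under the alternatives. Calls over all genes were 27195 in the main fit. They were 20160 to 30878 under the alternatives other than leaving out 1 library, which also differ in the number of genes tested.

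Leaving out each replicate number in turn, the log2 ratio of Ctnnb1 to Cdh1 in Rescue against WT ranged from -0.3856 to -0.3623, that of Nectin4 to Nectin1 from -0.8415 to -0.6753 in PKP4-KO and from 0.361 to 0.4629 in Rescue cells, and each failed the test at least once. Groups share replicate numbers, but nothing in the labels says that a number pairs samples, and the deviations of same-numbered libraries correlated over 0.1 in 8 of 36 pairs (range -0.649 to 0.718). With the replicate block the calls of PKP4-KO against WT fell from 21 to 20 and those of Rescue against PKP4-KO from 25 to 24, both through Afdn (adjusted p = 0.0531 and 0.0542, edgeR), the other totals stayed at 7, 6, 17, 16 and 8, and permuting within the block gave exact p = 0.0601 for Ctnnb1 to Cdh1 in Rescue (-0.3749) and 0.0532 for Nectin4 to Nectin1 in PKP4-KO cells (-0.7337). With the block, calls over all genes went from 27195 to 26724 in PKP4-KO against WT and from 27609 to 27265 in Rescue against PKP4-KO. Depth limits Cdh2, Zeb1 and Nectin3 more than any member, since every member had counts well above the filter in every library.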
